A study of Mus musculus with 3 samples.

Results

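The genes described here carry glucose into the cell and break it down to lactate, together with the regulators and side branches closest to that route. They were given as a list of 34 genes, and a listed gene counted where the deposited gene table held its symbol and the 3 libraries together held at least 20 unique molecular identifiers (UMIs, the tags that mark single captured RNA molecules) of it. All 34 listed genes met this rule, among 27998 genes in the table and 13637 with at least 20 UMIs. The list holds 3 glucose transporters, 19 enzyme genes from hexokinase to lactate dehydrogenase, the enzymes Pfkfb3 and Pfkfb4 that set the amount of fructose 2,6-bisphosphate, 2 lactate and pyruvate carriers, 2 pyruvate dehydrogenase kinases, 2 phosphoglucomutases, 2 pentose phosphate dehydrogenases, the hypoxia factor Hif1a and its target Bnip3.

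Glycolysis turns glucose into pyruvate in the cytosol, and lactate dehydrogenase then turns pyruvate into lactate, which leaves the cell through monocarboxylate carriers. Several steps are served by more than 1 gene, so cells can run the same reaction with different isoenzymes: the 3 enolases, for example, are known as the widespread form (Eno1), the neuronal form (Eno2) and the muscle form (Eno3). Dendritic cells stimulated through Toll-like receptors are known for taking up more glucose and making more lactate, and the hypoxia factor HIF-1 is a known activator of many of these genes.

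Peyer's patches are lymphoid follicles in the wall of the small intestine. CD11c+ cells were taken from them, and live type 1 and type 2 conventional dendritic cells (cDC1, cDC2), LysoDC (lysozyme-expressing dendritic cells of monocyte origin) and macrophages were sorted and put through droplet single-cell RNA sequencing in 3 libraries. Each library pooled 12 female C57BL/6Rj mice and is the only one of its group. The Control mice were untreated and received no injection (88 patches). The CpG mice received 125 µg of CpG, a DNA ligand of Toll-like receptor 9, by intraperitoneal injection in PBS and were taken 9 hours later (85 patches). The R848 mice received 10 µg of R848, a small ligand of Toll-like receptor 7, in the same way for 9 hours (90 patches). The effect of the injection itself cannot be told apart from that of the ligands. The age of the mice was not given in the sources used here.

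The libraries held 43537067, 43767864 and 46556726 UMIs in 5344, 5049 and 5133 cell barcodes (Control, CpG and R848, the order used for all values below), and 5079, 4821 and 4898 cells were kept. Pairs of libraries shared 33 to 42 barcodes and no barcode was in all 3. Cells were clustered in each library without the 34 genes, and clusters were named from marker lists, which gave 2253, 393 and 449 resting DC-like cells, 286, 2811 and 2204 mature DC-like cells, and 1845, 1190 and 1404 lysozyme-high phagocyte-like cells. The maturation markers Ccr7 and Fscn1 were at 2221, 4388 and 3653 CPM and at 2475, 5346 and 3779 CPM in the mature class, against 61 to 137 CPM and 51.8 to 99.0 CPM in the resting class. Lyz1 was at 12041 to 18746 CPM in the lysozyme-high class. The resting class of the Control library held 468 cDC1-like cells. Xcr1, the chemokine receptor that marks cDC1, was at 155 CPM in that class and at 1.12 and 2.49 CPM in the resting classes of the treated libraries.

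All levels are UMIs of a gene per 1000000 UMIs of the summed cells of a class (CPM), with exact 95% Poisson intervals, and they describe 1 library each. Intervals cover counting error only and say nothing of the spread between mice, so no difference between libraries has a replicate check and no p-value is given. A gene was counted as measured in a comparison where 1 of the 2 sums reached 20 CPM, and as higher or lower where the ratio, with 5 CPM added to both sides, reached 1.5-fold. Both comparisons of treated cells with Control cells share the Control library. In a summed class, fewer cells holding a transcript and less transcript per cell give the same value.

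The promoters of the 4 genes on which the results turn are shown first, because 2 of them (Ldha and Eno1) were lower and 2 (Eno3 and Pfkfb3) were higher in mature than in resting cells. Ldha makes lactate from pyruvate and lies at chr7:46841475-46855627 on the + strand (GENCODE M21, GRCm38). Eno1 lies at chr4:150236721-150248879 on the + strand, Eno3 at chr11:70657202-70662513 on the + strand, and Pfkfb3 at chr2:11471433-11554077 on the − strand. Each line gives the 250 bases before a RefSeq transcription start (GRCm38.p6), 5′ to 3′ along the gene: chr7:46845554-46845803 (+) for Ldha, chr4:150236458-150236707 (+) for Eno1, chr11:70656926-70657175 (+) for Eno3 and chr2:11553930-11554179 (−) for Pfkfb3. Capitals mark the core of the hypoxia response element, ACGTG or GCGTG on either strand.
Ldha: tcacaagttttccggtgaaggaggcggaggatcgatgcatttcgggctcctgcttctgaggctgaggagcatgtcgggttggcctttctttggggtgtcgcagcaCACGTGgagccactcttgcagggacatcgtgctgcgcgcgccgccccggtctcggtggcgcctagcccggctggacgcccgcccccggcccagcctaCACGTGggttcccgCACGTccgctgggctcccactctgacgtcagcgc
Eno1: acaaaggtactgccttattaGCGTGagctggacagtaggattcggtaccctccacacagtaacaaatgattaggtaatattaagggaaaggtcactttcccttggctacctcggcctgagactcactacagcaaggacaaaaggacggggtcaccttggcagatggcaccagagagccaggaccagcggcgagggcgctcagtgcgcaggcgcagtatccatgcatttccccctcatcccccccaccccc
Eno3: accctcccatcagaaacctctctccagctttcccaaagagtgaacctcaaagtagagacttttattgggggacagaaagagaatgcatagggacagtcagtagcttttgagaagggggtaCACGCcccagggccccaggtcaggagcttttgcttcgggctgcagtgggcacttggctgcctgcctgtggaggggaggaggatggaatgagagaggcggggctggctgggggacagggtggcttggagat
Pfkfb3: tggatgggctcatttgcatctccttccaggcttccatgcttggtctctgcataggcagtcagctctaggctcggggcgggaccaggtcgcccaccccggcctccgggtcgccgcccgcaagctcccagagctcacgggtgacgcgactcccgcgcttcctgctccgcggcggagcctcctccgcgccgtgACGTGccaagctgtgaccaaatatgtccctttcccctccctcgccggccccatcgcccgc
The Ldha window held 5 matches, in which the letters CACGTG count once on each strand, and the other windows held 1 match each. A promoter entry was found for 33 of the 34 genes. The core was in 27 of these 33 windows (81.8%), against 38.6% of all 32851 RefSeq promoter windows of the same length. These shares are not of like sets. Each member had only the window nearest its gene start, and all windows can hold several starts of a gene. Base make-up, such as the share of CG pairs, was not matched, so whether the core is particular to the members was not tested. The windows of Hk1, Gpi1, Aldoa, Tpi1, Eno2 and Pkm did not hold these letters. Counts of 3′ ends do not tell which transcription start was used, and a match is a stretch of letters, not a shown binding site.

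In the CpG and R848 libraries most of the measured members were lower in mature DC-like than in resting DC-like cells, in the Control library fewer were, and Eno3 and Pfkfb3 were higher in mature cells of all 3 libraries. In the Control library 9 of the 22 members measured were at least 1.5-fold lower and 2 were higher, where 25.9% of all measured genes were lower and 17% were higher. In the CpG library 21 of 24 members were lower and 2 were higher, against 31.3% and 19.9% of all genes. In the R848 library 19 of 23 members were lower and 2 were higher, against 42.6% and 18.7% of all genes. The median log2 difference of the members was -0.36, -1.22 and -1.34, beside -0.14, -0.19 and -0.40 for all measured genes. Ldha, Eno1, Hk2, Gpi1, Pgam1, Slc16a3, G6pdx and Pgd were at least 1.5-fold lower in all 3 libraries, and Eno3 and Pfkfb3 were at least 1.5-fold higher in all 3. The Control resting sum mixed cDC1-like and cDC2-like cells, and mature cells of no library were split by lineage. In the CpG and R848 libraries Xcr1 was at 1.12 and 2.49 CPM in resting and at 2.59 and 29.1 CPM in mature cells. The part of lineage in these counts, and in their differences between libraries, was not tested. In the 468 Control cDC1-like cells Eno1 (105 CPM), Slc16a3 (4.72 CPM) and G6pdx (10.0 CPM) were below their Control mature levels. Ldha (591 CPM), Hk2 (35.4 CPM), Gpi1 (304 CPM), Pgam1 (170 CPM) and Pgd (33.3 CPM) were above theirs. Scaling by the median ratio over genes moved the median of all genes to -0.12, 0.15 and 0.16 and left 8, 18 and 16 members lower and 2, 2 and 4 higher. When the 3 libraries were clustered together, the Control count of lower members was 4, and Gpi1, Pgam1, Eno1, Slc16a3 and Pgd were then within 1.5-fold. With cells named one by one these genes were also within 1.5-fold in Control, at -0.48, -0.56, -0.38, -0.54 and -0.57 on the log2 scale. Gpi1 in Control was so too with 20 CPM added, median-ratio scaling, doublets kept or resting clusters high in Ccr7 left out. Slc16a3 in R848 was at -0.32 without the largest cluster of each class.

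**Figure D1:**
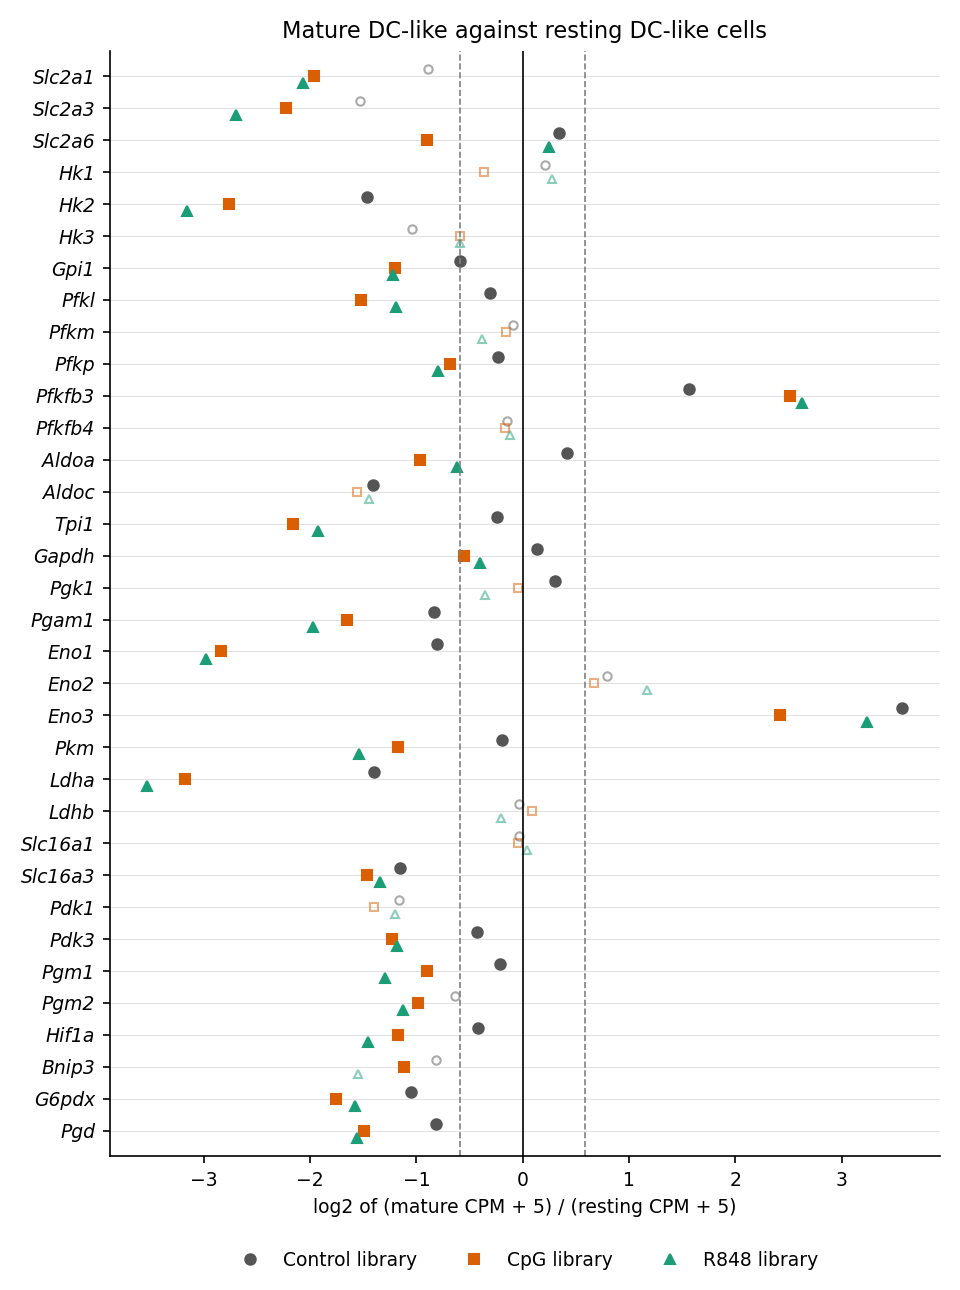
Log2 ratio of mature DC-like to resting DC-like cells for each of the 34 genes (x axis, 5 CPM added to both sides) in the Control, CpG and R848 libraries. Filled symbols mark genes with at least 20 CPM in 1 of the 2 classes, open symbols the others, and dashed lines mark 1.5-fold. Eno3 and Pfkfb3 lie right of the lines in all 3 libraries, and Ldha lies farthest left in the CpG and R848 libraries.

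With 5 CPM added to both sides, Ldha had the largest log2 difference of the measured members between mature and resting cells in both treated libraries. By plain ratio, Hk2 and Slc2a3, at lower levels, differed by more than Ldha in both. Ldha was at 781, 1118 and 984 CPM in resting cells and at 294, 119 and 80.6 CPM in mature cells of the Control, CpG and R848 libraries. Every mature value lay below every resting value. The difference was 2.66-fold in Control (95% interval 2.42 to 2.93), 9.39-fold in CpG (8.90 to 9.90) and 12.2-fold in R848 (11.4 to 13.1). Cells with fewer than 3000 UMIs were left out and the others were thinned to 3000 UMIs. Of the cells so thinned, 85.2%, 88.2% and 91.6% of resting and 42.9%, 24.3% and 19.6% of mature cells held at least 1 Ldha UMI. Unthinned and over all cells of a class, these shares were 95.6%, 97.2% and 98.4% of resting cells and 55.6%, 39.1% and 30.9% of mature cells. Median depths were 6288, 8937 and 7841 UMIs in resting and 4778, 5671 and 5360.5 UMIs in mature cells.

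At enolase, which makes phosphoenolpyruvate, Eno1 held most UMIs in resting cells and Eno3 in mature cells of all 3 libraries. Eno1 was at 359, 457 and 417 CPM in resting cells and at 204, 59.5 and 48.4 CPM in mature cells, which was 1.76-fold (1.57 to 1.98), 7.68-fold (7.10 to 8.31) and 8.61-fold (7.84 to 9.46) lower. Eno3 was at 24.0, 36.6 and 35.8 CPM in resting cells and at 339, 218 and 380 CPM in mature cells, which was 14.1-fold (12.3 to 16.2), 5.96-fold (5.0 to 7.15) and 10.6-fold (8.92 to 12.7) higher. As a share of all enolase UMIs, Eno3 made up 6.3%, 7.4% and 7.9% in resting cells and 62.0%, 77.6% and 87.4% in mature cells. Eno2 reached at most 6.23 CPM in any class. The summed enolase level was 383, 493 and 453 CPM in resting cells and 546, 281 and 434 CPM in mature cells. The last 400 bases of the Eno1 transcript are shared to 83.8% (in 50-base words) with other annotated genes, among them Eno1b, which was listed at 5.71 to 9.76 CPM of a whole library, so Eno1 counts may miss reads that match these copies. Eno3 shared none of its last 400 bases with another gene.

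**Figure D2:**
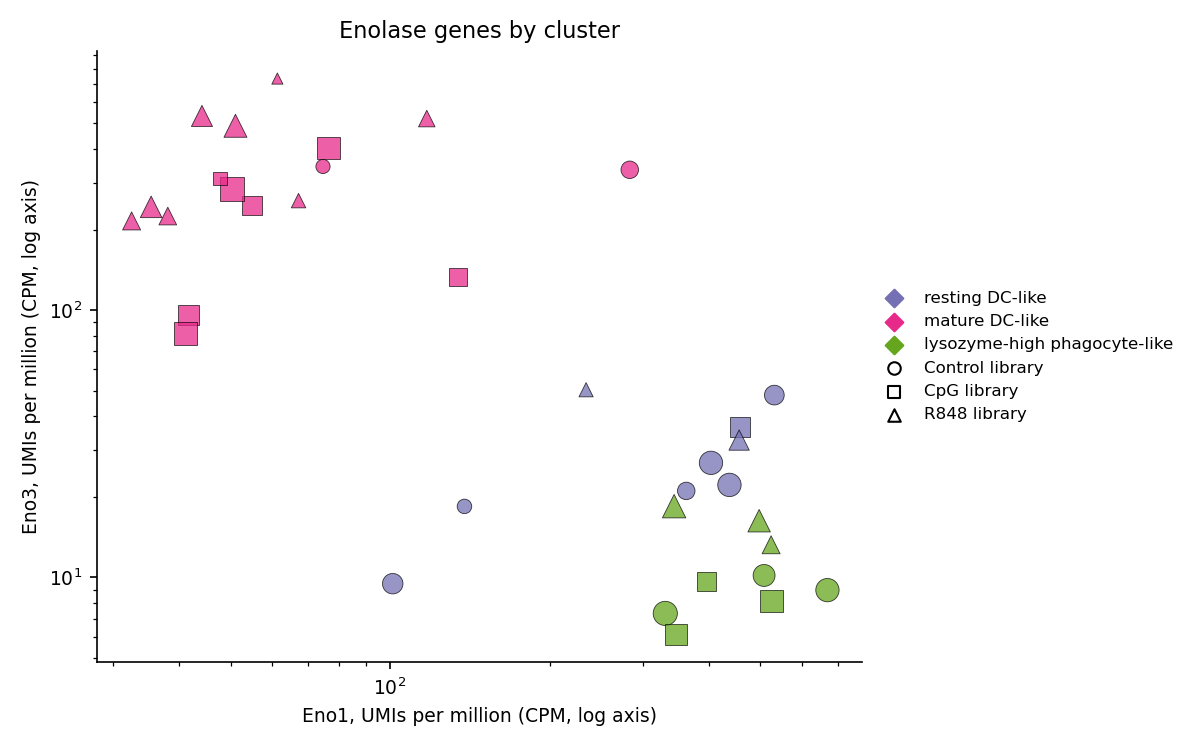
Eno3 against Eno1 in each cluster of the 3 named classes (both in CPM, log axes). Colour marks the class and shape the library, and symbol area grows with the square root of the number of cells. Mature clusters lie at 81.9 to 735 CPM of Eno3 and the clusters of the other classes at 50.3 CPM or less, and the Control mature cluster of 200 cells, at 283 CPM of Eno1, lies apart from the other mature clusters.

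Pfkfb3, the enzyme that makes the phosphofructokinase activator fructose 2,6-bisphosphate, was the other gene higher in mature cells. It was at 32.1, 42.2 and 39.9 CPM in resting cells and at 105, 264 and 273 CPM in mature cells. The difference was 3.26-fold (2.71 to 3.91), 6.26-fold (5.32 to 7.42) and 6.83-fold (5.78 to 8.12). The phosphofructokinase genes themselves, Pfkl and Pfkp, were at 38.2, 49.8 and 34.6 CPM and at 45.9, 77.6 and 46.6 CPM in resting cells. In mature cells Pfkl was at 29.9, 14.0 and 12.4 CPM and Pfkp at 38.4, 46.5 and 24.6 CPM, and both were called lower in the CpG and R848 libraries alone. Under median-ratio scaling Pfkp was within 1.5-fold in both treated libraries. Pfkm was at 1.94 CPM or less in every class, and Pfkfb4 made up at most 2.4% of the Pfkfb3 and Pfkfb4 UMIs of mature cells.

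At the entry of the pathway, Hk2, the inducible hexokinase that traps glucose as glucose 6-phosphate, was at 62.5, 78.5 and 69.8 CPM in resting cells and at 19.5, 7.31 and 3.38 CPM in mature cells. It was 3.20-fold (2.23 to 4.77), 10.7-fold (8.68 to 13.4) and 20.6-fold (14.9 to 29.1) lower. Hk1, the housekeeping hexokinase, was at 13.5 to 16.8 CPM in mature and at 12.2 to 18.8 CPM in resting cells, so that it made up 40.4%, 59.0% and 77.7% of hexokinase UMIs in mature cells and 14.3%, 18.3% and 14.9% in resting cells. The transporters Slc2a1 and Slc2a3, which carry glucose across the plasma membrane, were under 20 CPM in both classes of the Control library and so were not called there. In the treated libraries Slc2a1 was at 33.2 and 24.9 CPM in resting and at 4.77 and 2.15 CPM in mature cells, and Slc2a3 at 21.9 and 35.5 CPM and at 0.748 and 1.23 CPM. Slc2a6, a transporter of lysosomal membranes, behaved otherwise: it was at 63.1, 99.0 and 64.6 CPM in resting and at 81.3, 50.7 and 77.4 CPM in mature cells, and was called lower in the CpG library alone.

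Among the enzymes between hexokinase and pyruvate kinase, Gpi1 (glucose-6-phosphate isomerase) was at 353, 372 and 341 CPM in resting and at 232, 159 and 144 CPM in mature cells. Tpi1 (triosephosphate isomerase) was at 173, 230 and 163 CPM and at 146, 47.6 and 39.1 CPM. Pgam1 (phosphoglycerate mutase) was at 231, 264 and 221 CPM and at 127, 80.5 and 52.6 CPM. In each of these the mature value was below the resting value of the same library, by 1.19-fold to 4.82-fold. Pkm (pyruvate kinase) was at 458, 702 and 524 CPM in resting and at 399, 309 and 177 CPM in mature cells and was called lower in the treated libraries alone. Aldoa (aldolase) was at 577, 732 and 572 CPM in resting and at 770, 372 and 371 CPM in mature cells. Its R848 difference, 1.54-fold lower (1.46 to 1.62), ended with median-ratio scaling at -0.10 on the log2 scale and turned to 0.24 when the largest cluster of each class was left out. Gapdh was at 704, 1156 and 716 CPM and at 776, 786 and 542 CPM and was within 1.5-fold in all 3 libraries. Its last 400 bases are shared to 87.7% with 116 other annotated genes, mostly processed copies, so its counts are uncertain.

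Beyond pyruvate, Slc16a3, the carrier that lets lactate out of glycolytic cells, was at 46.5, 81.0 and 55.7 CPM in resting and at 18.2, 26.1 and 18.99 CPM in mature cells, 2.56-fold (1.75 to 3.87), 3.10-fold (2.67 to 3.60) and 2.93-fold (2.42 to 3.55) lower. Slc16a1 was at 1.64 CPM or less in every class. Pdk3, a kinase that holds pyruvate back from the mitochondria, was at 39.3, 55.7 and 49.9 CPM and at 28.0, 20.9 and 19.1 CPM. The pentose phosphate dehydrogenases followed the same direction: G6pdx was at 32.2, 59.6 and 44.6 CPM in resting and at 13.0, 14.2 and 11.6 CPM in mature cells, and Pgd at 60.9, 87.4 and 77.3 CPM and at 32.5, 27.8 and 22.9 CPM. The hypoxia factor gene Hif1a was at 72.1, 131 and 158 CPM in resting and at 52.7, 55.3 and 54.4 CPM in mature cells, called lower in the treated libraries alone. The 2 phosphoglucomutases carry swapped names: the gene listed as Pgm1 in the deposited table is named Pgm2 in GENCODE M21, and the reverse.

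Of 70 other genes of the neighbouring pathways found in the table, 20, 23 and 24 were measured between mature and resting cells, and 6, 12 and 13 were lower and 3, 4 and 4 higher. Beside them, 25.9%, 31.3% and 42.6% of all measured genes were lower and 17%, 19.9% and 18.7% higher. The same shares apply to the counts of single lists below, which rest on few genes. The 21 further glycolysis and glucose entry genes (among them the liver and testis isoenzymes) had none measured in any comparison. In the pentose phosphate list, 4, 5 and 6 of 6 measured genes were lower. Taldo1 (transaldolase) was at 1217, 1678 and 1767 CPM in resting and at 462, 422 and 264 CPM in mature cells. Among the genes of HIF regulation and hypoxia, 2, 4 and 4 of 6, 7 and 7 were lower and 2, 2 and 2 higher. Ndrg1, a stress-induced gene of that list, was at 66.3 CPM in mature and 15.2 CPM in resting Control cells and at 122 and 25.6 CPM in the CpG and 63.3 and 9.70 CPM in the R848 library. Gyg (glycogenin, which starts a glycogen chain) was at 195, 365 and 607 CPM in mature and at 70.4, 101 and 89.0 CPM in resting cells.

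Other values differed between the same cells. Ribosomal protein genes made up 21.4%, 16.7% and 16.9% of UMIs in resting and 17.6%, 14.4% and 14.7% in mature cells, and 10 stress genes of tissue dissociation summed to 2279, 1953 and 1832 CPM and to 1076, 1469 and 1314 CPM. The lysozyme-high phagocyte list summed to 11040, 13286 and 10622 CPM in resting and to 5068, 2280 and 1747 CPM in mature cells, against 125866, 116890 and 93255 CPM in the lysozyme-high class itself. Of its 16 markers 11 or 12 reached 5 CPM in resting and 10 or 11 in mature cells, and Fcgr1 alone was at 0, in Control mature cells. The T cell, NK cell and ILC list summed to 206, 224 and 353 CPM in resting and 114, 33.7 and 65.2 CPM in mature cells, where 1 or 2 of its 9 markers reached 5 CPM and Cd3d and Cd3e were at 0 in the resting cells of both treated libraries. The plasmacytoid DC list summed to 187, 308 and 266 CPM and to 88.4, 82.3 and 65.7 CPM, with 3 to 5 of 9 markers at 5 CPM and Klk1 at 0 in all but 1 of these 6 sums. Erythroid and mast cell lists summed to under 0.5 CPM in all. The part of these in the differences was not tested. Leaving ribosomal and mitochondrial genes out of the totals left 13, 22 and 20 members lower.

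Mature clusters were not alike in these genes. In the treated libraries Ldha ranged from 62.6 to 281 CPM over 7 CpG clusters and from 44.9 to 194 CPM over 8 R848 clusters, all below the 556 CPM of the lowest resting cluster. The CpG cluster with the most Ldha, 257 cells, was also the one with the most Il12b (2153 CPM), the shared chain of interleukins 12 and 23, and it had the highest value of the 7 clusters for 9 of 21 members compared. In the treated libraries Pfkfb3 and Eno3 peaked in different clusters. Of the 2 mature Control clusters, the one of 86 cells had 148 CPM of Pfkfb3 and 345 CPM of Eno3. The one of 200 cells had 78.0 CPM of Pfkfb3 and 335 CPM of Eno3, so Eno3 was nearly the same in both. Pfkfb3 was highest, at 468 CPM, in a CpG cluster of 595 cells with 81.9 CPM of Eno3, and at 448 CPM in an R848 cluster of 461 cells with 243 CPM of Eno3. Eno3 was highest, at 735 CPM, in an R848 cluster of 33 cells with 96.3 CPM of Pfkfb3. In the Control library a resting cluster of 321 cells carried 861 CPM of Ccr7, between the other resting clusters and the mature ones. It had the highest value of the 6 resting clusters for 14 of 26 members compared, with 909 CPM of Ldha, 531 CPM of Eno1, 116 CPM of Slc16a3 and 48.1 CPM of Eno3. The share of all genes highest in this cluster, or in the CpG cluster of 257 cells, is not given here. Whether these counts are particular to the members was not tested. Without the cluster of 321 cells the Control comparison of mature with resting cells had 8 lower and 3 higher members.

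Lysozyme-high phagocyte-like cells, the sorted LysoDC and macrophages, had more members higher than lower when set against resting DC-like cells. In the Control library 12 of 27 measured members were higher and 3 lower, with 20.6% of all genes in either direction. In the CpG library 10 of 26 were higher and 3 lower, against 19.4% and 28.5%, and in the R848 library 12 of 27 were higher and 4 lower, against 20.2% and 28.6%. Slc2a6, Hk3, Pfkl, Pfkfb3, Aldoa, Ldhb, Pgm2, Bnip3 and Pgd were higher in all 3 libraries, and Pfkp and Eno3 were lower in all 3. The R848 difference of Eno3 turned from -0.91 to 0.06 on the log2 scale when clusters with no name were put in the class they scored highest for. Aldoa in the CpG library, Pfkl in the Control library and Bnip3 in the R848 library fell under 1.5-fold without ribosomal and mitochondrial genes in the totals. With 20 CPM added, Pfkl in Control, Pgm2 in R848 and Bnip3 in R848 were at 0.51, 0.56 and 0.43 on the log2 scale. Pfkl in Control was at 0.58 with doublets kept and at 0.48 without the cDC1-like cells of the resting class. With unnamed clusters added, Pfkfb3 in CpG was at 0.52 and Bnip3 in R848 at 0.49.

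Set against lysozyme-high cells, mature cells were lower for 17 of 26, 21 of 25 and 23 of 26 measured members, where 31%, 31% and 38.8% of all genes were lower. Higher in mature cells were 2, 3 and 3 members, against 24.4%, 29.6% and 24.5% of all genes: Pfkp and Eno3 in all 3 libraries, and Pfkfb3 in CpG and R848.

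Hk3, a hexokinase of myeloid cells, was at 37.5, 94.1 and 112 CPM in the lysozyme-high class and at 10.6, 5.62 and 4.71 CPM in resting cells. Ldhb, the lactate dehydrogenase of oxidative tissues, was at 56.9, 47.0 and 29.5 CPM and at 4.12, 1.97 and 3.60 CPM, and it made up 8.5%, 5.5% and 3.1% of lactate dehydrogenase UMIs in the lysozyme-high class against 0.5%, 0.2% and 0.4% in resting cells. Slc2a6 was at 174, 249 and 222 CPM, above its level in the resting and mature classes of the same library. Bnip3, a mitophagy gene induced by HIF-1, was at 44.0, 51.0 and 34.0 CPM against 16.3, 20.5 and 19.96 CPM in resting cells. Ldha itself was at 610, 811 and 909 CPM, within 1.5-fold of resting cells in all 3 libraries. For Eno3 the class stood lowest, at 8.67, 7.76 and 16.7 CPM, of which free RNA from outside the cells was estimated to give 1.55, 3.82 and 3.47 CPM. In mature cells Hk3, at 2.60, 2.07 and 1.46 CPM, was near its free RNA estimate of 1.2, 1.45 and 1.49 CPM. The estimate takes all C1qa, C1qb and C1qc UMIs of mature cells as free RNA, an assumption that was not tested. It came to 5.34%, 3.69% and 2.47% of UMIs, with the profile of all cell barcodes of a library, and was used alike for every class.

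**Figure D3:**
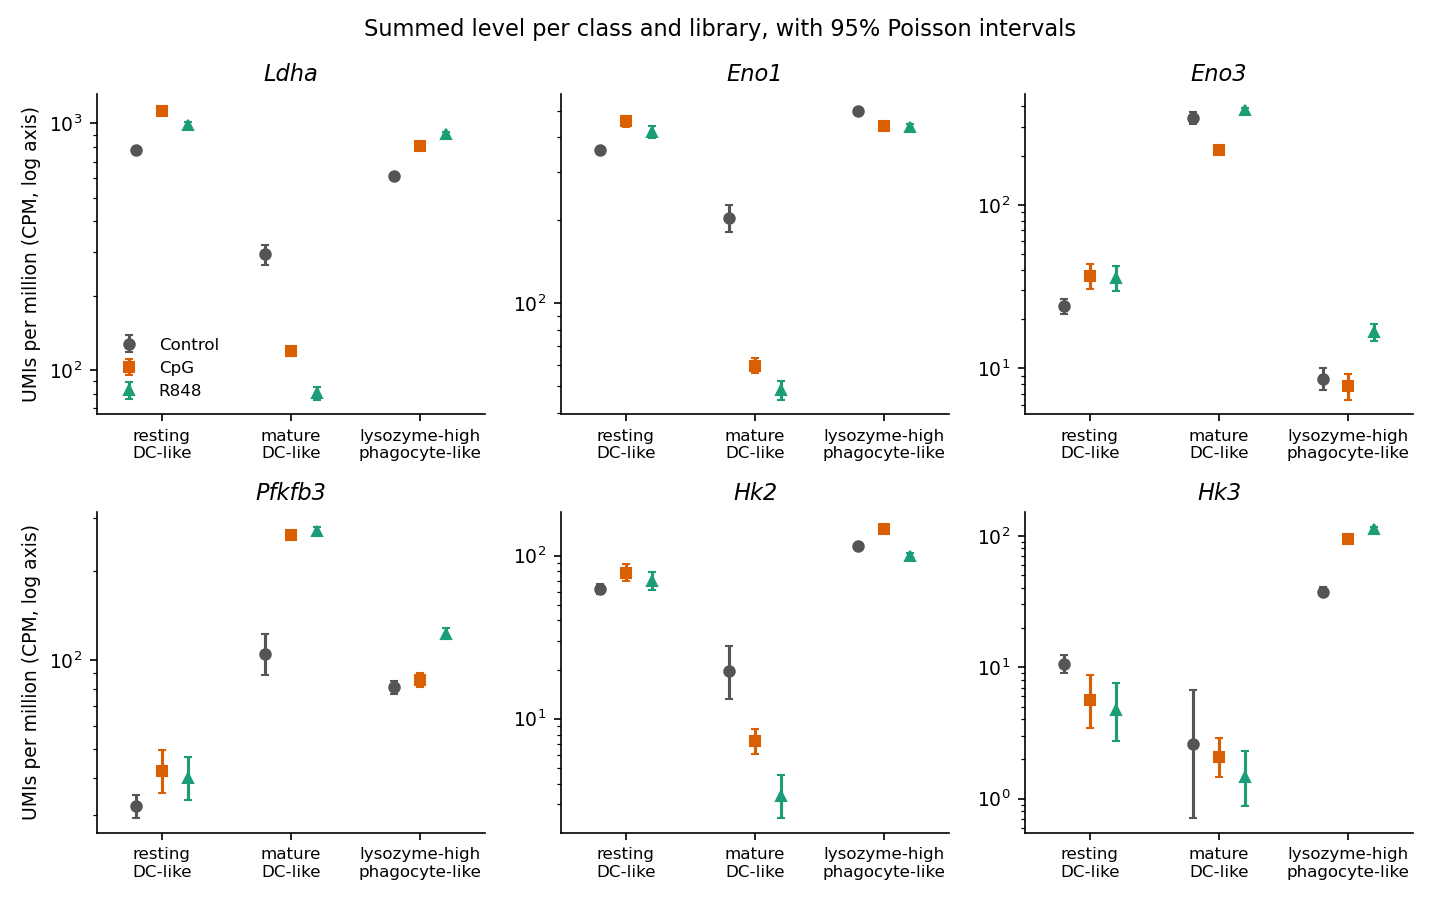
Level of 6 genes in resting DC-like, mature DC-like and lysozyme-high phagocyte-like cells of the Control, CpG and R848 libraries, in CPM on a log axis with exact 95% Poisson intervals. Ldha, Eno1 and Hk2 are lowest in mature cells, Eno3 and Pfkfb3 highest there, and Hk3 highest in lysozyme-high cells, from 37.5 to 112 CPM.

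Per cell, the 19 enzyme genes took a median of 0.344%, 0.478% and 0.369% of a resting cell's UMIs, 0.276%, 0.202% and 0.173% of a mature cell's, and 0.424%, 0.516% and 0.515% of a lysozyme-high cell's. The 10th to 90th percentiles ran from 0.184% to 0.634% in Control resting cells and from 0.124% to 0.601% in Control mature cells. In the treated mature classes they ran from 0.0984% to 0.348% (CpG) and from 0.0811% to 0.309% (R848), so the 90th percentile of treated mature cells lay below the median of resting cells of the same library. Cells of 1 library share their mice and preparation and are no replicates.

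**Figure D4:**
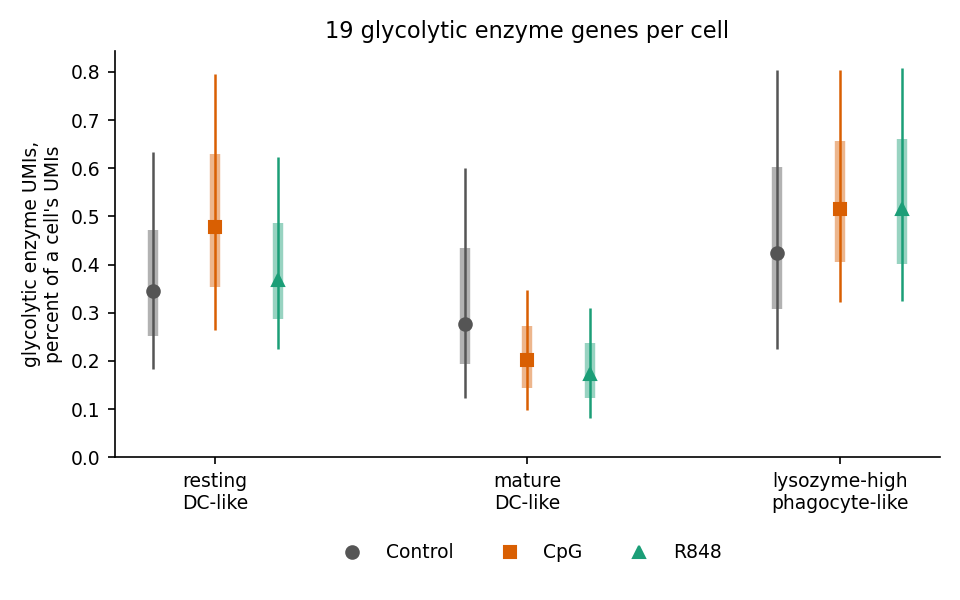
Share of a cell's UMIs from the 19 glycolytic enzyme genes, in percent, by class and library. Symbols mark medians, thick bars the 25th to 75th and thin lines the 10th to 90th percentiles over cells. Mature cells of the treated libraries have the lowest medians, 0.202% and 0.173%.

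Comparing libraries within a class asks how these genes differed between untreated and treated mice beyond the different numbers of cells in each class. Among resting DC-like cells, CpG exceeded Control by at least 1.5-fold for 9 of 25 measured members and was below it for none, against 8.97% of all genes higher and 4.6% lower. They were Slc2a1, Slc2a6, Pfkp, Gapdh, Pkm, Slc16a3, Pgm1, Hif1a and G6pdx. In R848 against Control, 2 of 24 were higher (Slc2a3 and Hif1a) and none lower, against 12.3% and 3.43%. Hif1a was at 72.1 CPM in Control, 131 CPM in CpG and 158 CPM in R848 resting cells, 1.82-fold (1.63 to 2.03) and 2.19-fold (1.98 to 2.43) higher. The median difference of all genes was 0.20 and 0.26 on the log2 scale, and median-ratio scaling, which moved it to -0.02 in both, left 2 members higher and 1 lower in each comparison. With the largest cluster of each class left out, which leaves 87 cells in R848, 5 members were higher and 7 lower in R848 than in Control.

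The Control resting class held cDC1-like cells and the treated ones did not, and the members differed between these cells. Within the Control library 18 of 24 measured members were at least 1.5-fold lower and 1 (Pfkp) higher in the 468 resting cDC1-like than in the 1785 cDC2-like cells, where 21.1% of all genes were lower and 8.2% higher. Eno1 was at 105 CPM in cDC1-like and 434 CPM in cDC2-like cells, Slc16a3 at 4.72 and 58.9 CPM, Slc2a6 at 11.8 and 78.4 CPM, Hif1a at 27.7 and 85.2 CPM, and Pfkp at 70.5 and 38.6 CPM. Ldha, at 591 and 838 CPM, was within 1.5-fold. With the cDC1-like clusters left out, 2 members were at least 1.5-fold higher in CpG than in Control resting cells, and Slc2a6, Pkm and Slc16a3 were at 0.32, 0.44 and 0.43 on the log2 scale. The cDC2 markers of the resting classes differed too. Cd209a was at 105, 0.281 and 29.7 CPM and Sirpa at 81.7, 107 and 96.5 CPM, and the whole cDC2 list summed to 1449, 1789 and 1664 CPM. The part of this in the differences was not tested.

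In mature DC-like cells, 9 of 18 measured members were lower in CpG than in Control and 1 was higher, against 10.2% of all genes lower and 18.4% higher. In R848 against Control, 9 of 17 were lower and 1 higher, against 13.9% and 12.8%. Pfkl, Aldoa, Tpi1, Pgk1, Pgam1, Eno1 and Ldha were lower and Pfkfb3 was higher in both comparisons, which share the Control cells. Tpi1 was at 146 CPM in Control, 47.6 CPM in CpG and 39.1 CPM in R848 mature cells, 3.06-fold (2.63 to 3.55) and 3.72-fold (3.17 to 4.36) lower. Eno1 was 3.42-fold (3.01 to 3.89) and 4.20-fold (3.66 to 4.82) lower, and Pfkfb3 2.52-fold (2.16 to 2.97) and 2.60-fold (2.22 to 3.07) higher. Eno3 was called lower in CpG (1.56-fold, 1.42 to 1.71) and not in R848.

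The Control mature class was small, 286 cells in 2 clusters, and they differed in these genes. The cluster of 200 cells had 379 CPM of Ldha, 283 CPM of Eno1 and 4.21 CPM of Xcr1, and the cluster of 86 cells had 156 CPM of Ldha, 74.7 CPM of Eno1 and 54.3 CPM of Xcr1. With the largest cluster of each class left out, which leaves the 86 cells as Control, 3 members were lower and 3 higher in CpG than in Control, and Eno1, Ldha and Tpi1 were at -0.24, -0.33 and -0.23 on the log2 scale. In R848 against the same Control cells 8 members were lower and 2 higher, and Eno1, Ldha and Tpi1 were still at least 1.5-fold lower. The marker list of the lysozyme-high class summed to 5068 CPM in Control mature cells and to 2280 and 1747 CPM in CpG and R848 mature cells, and its part in these differences was not tested.

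In lysozyme-high cells few members differed between libraries. In CpG against Control 2 of 25 were higher (Hk3 and Pfkp) and 1 lower (Pgk1), against 6.98% and 2.93% of all genes. In R848 against Control 1 of 24 was higher (Hk3) and 1 lower (Ldhb), against 10.3% and 5.26%. Hk3 was at 37.5, 94.1 and 112 CPM, 2.51-fold (2.29 to 2.75) and 2.995-fold (2.75 to 3.27) higher than in Control. Pgk1 (phosphoglycerate kinase) was low in every class of the CpG library, at 6.19, 5.87 and 8.97 CPM in resting, mature and lysozyme-high cells, against 18.0, 23.4 and 25.9 CPM in Control and 12.5, 8.69 and 25.2 CPM in R848.

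The 2 treated libraries were also set against each other. In resting cells 1 of 24 measured members was higher in R848 than in CpG (Slc2a3) and 2 were lower (Pfkp and Gapdh), against 2.25% and 1.56% of all genes. In mature cells 1 of 16 was higher (Eno3) and 2 lower (Pfkp and Pkm), against 5.12% and 13.2%. In lysozyme-high cells 1 of 25 was higher (Pgk1) and 3 lower (Pfkp, Ldhb and Slc16a3), against 3.09% and 2.17%. Pfkp, the platelet isoenzyme of phosphofructokinase, was 1.67-fold (1.37 to 2.03), 1.89-fold (1.66 to 2.16) and 1.98-fold (1.65 to 2.37) lower in R848 than in CpG in the 3 classes. With 20 CPM added to both sides, Pfkp was within 1.5-fold in all 3, at -0.55, -0.58 and -0.43 on the log2 scale. Slc2a3 in resting cells was then at 0.40, and at 0.54 with median-ratio scaling and 0.15 with cells named one by one. Ldhb in lysozyme-high cells was at -0.44 with 20 CPM added and at -0.55 with doublets kept. Eno3 was at 380 CPM in R848 and 218 CPM in CpG mature cells, 1.74-fold (1.67 to 1.82) higher. Summed over resting and mature cells together, which also carries the different numbers of each, 2 of 21 measured members were higher and 8 lower in CpG than in Control, where 22.9% and 19.4% of all genes were. In the same sums 2 of 21 were higher and 11 lower in R848 than in Control (21.2% and 22.5% of all genes), and 1 of 18 was higher and 1 lower in R848 than in CpG (3.71% and 6.73%).

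**Figure D5:**
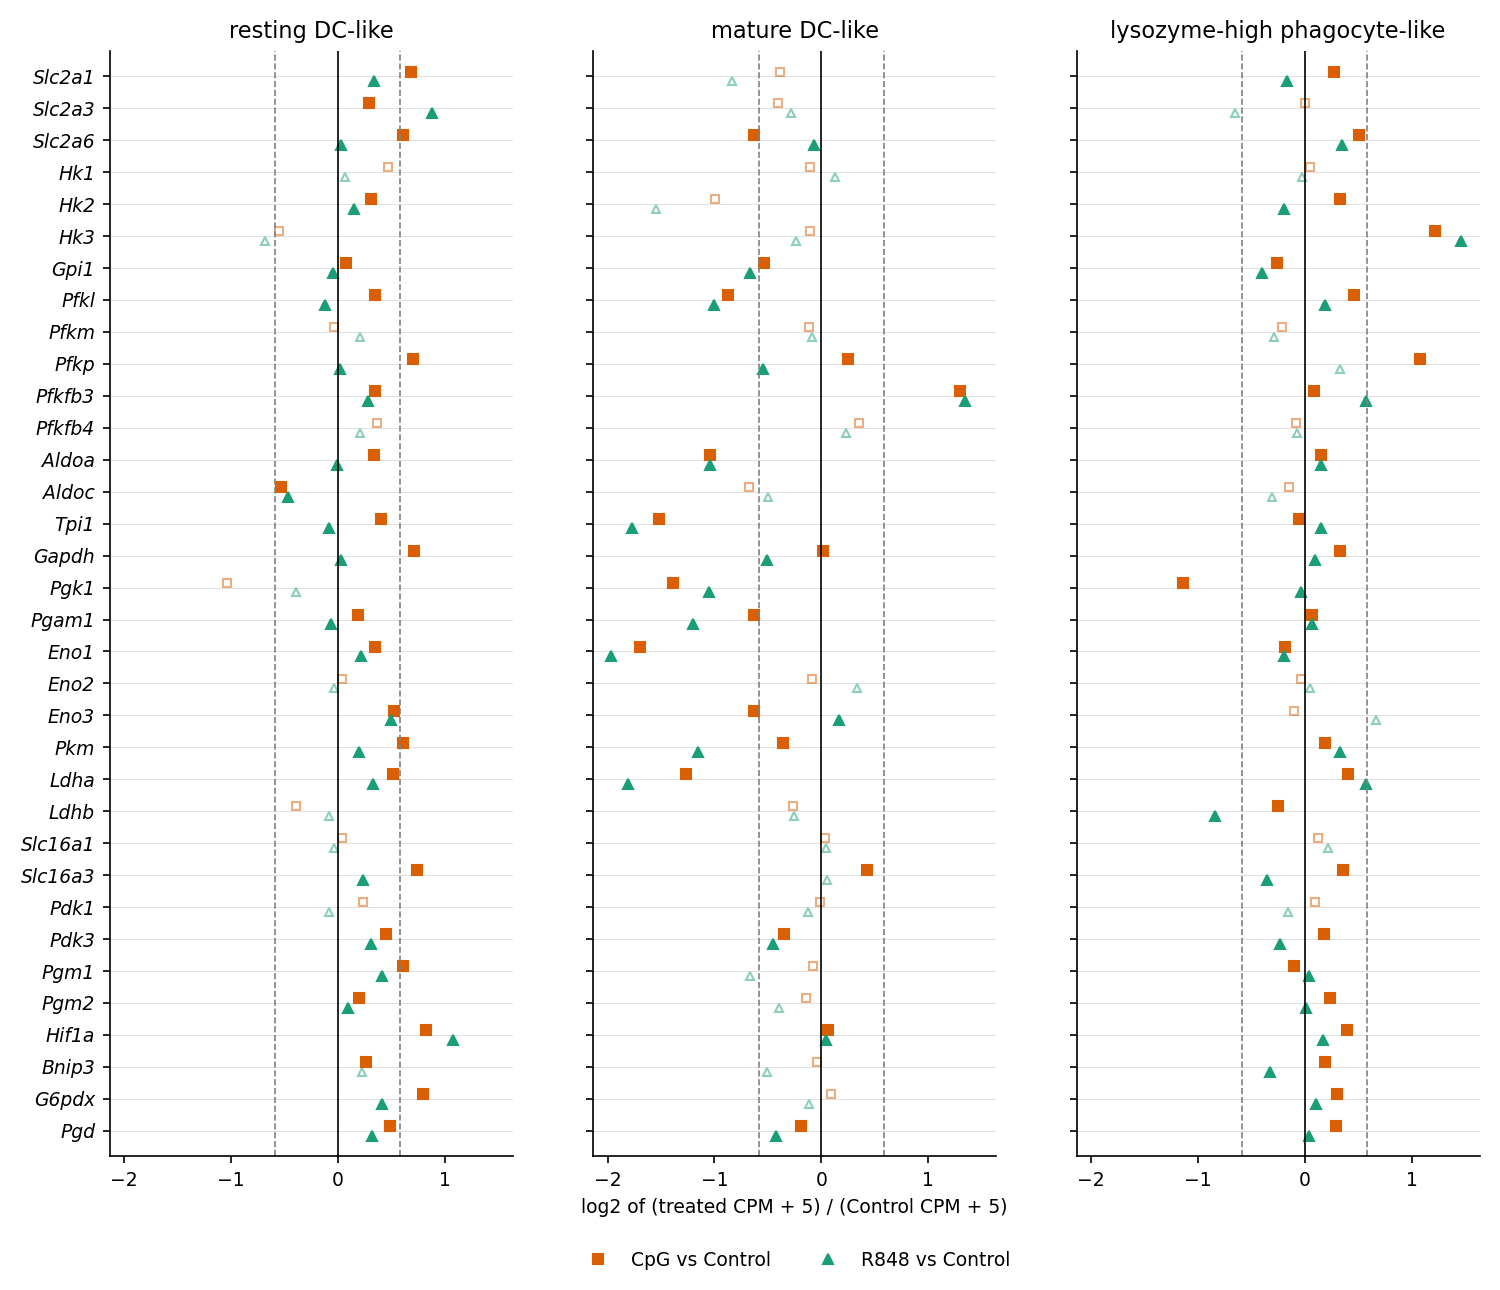
Log2 ratio of each treated library to the Control library (x axis, 5 CPM added to both sides) for the 34 genes in resting DC-like, mature DC-like and lysozyme-high phagocyte-like cells. Filled symbols mark genes with at least 20 CPM in 1 of the 2 sums, open symbols the others, and dashed lines mark 1.5-fold. In the mature class Eno1, Ldha and Tpi1 lie left of the lines and Pfkfb3 right of them for both ligands, and in lysozyme-high cells Hk3 lies right of them.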

How the data were processed

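Droplet 3′ single-cell RNA libraries were made from Peyer's patch phagocytes of 3 groups, 1 library each. The authors made the deposited UMI count tables, not normalized, with Cell Ranger 2.0.0 and mm10, per the submitters' processing notes; the sources used here do not give the annotation release. The members and lists were chosen with earlier results of these data known.

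Cells with at least 500 genes and at most 10% mitochondrial UMIs were kept, which left 5304, 5023 and 5107. Doublets were scored against 2 simulated doublets per cell (50 neighbours), and the highest-scoring 0.8% per 1000 cells, 225, 202 and 209, were removed. Each library was clustered without the members (scanpy 1.11.5, 2000 variable genes, 30 components, 15 neighbours, Leiden resolution 1). Clusters were named from 14 marker lists, with score limits (2 for cells outside the sort, 1 for proliferating, 0 for mature, a margin of 0.5) set after the data were seen; 309, 151 and 556 cells in clusters with no name stayed out. Names were rebuilt here and may differ from the study's. UMIs were summed per class and library. Every listed member could be named; of the other lists, the 3 highest and 3 lowest genes of a comparison could be. Ratios carry exact 95% conditional binomial intervals and shares of cells exact Clopper-Pearson ones. The counting rule was tested on simulated data. The alternatives are pseudocount, CPM minimum, scaling, free RNA, doublets, clustering and naming. Coordinates are from GENCODE M21 (GRCm38) and promoters from RefSeq (GRCm38.p6). Python 3.11.15 was used.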

Additional observations from a re-analysis of the deposited data

How the results depend on the processing

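Results are counts of members at least 1.5-fold higher or lower in a comparison; 10 alternatives were planned and 5 were chosen after seeing the data. Of the recomputed counts for the comparisons led with in the text, 301 were within 1.5 times the reported count and 53 were not, and the cause was not tested except that the 100 CPM minimum tests fewer genes. Against Control in resting cells, the 9 members higher in CpG were 5 with a pseudocount of 20 CPM, 3 with a minimum of 100 CPM, 2 with median-ratio scaling and 2 without cDC1-like clusters. The 0 lower became 2 without ribosomal and mitochondrial genes and 1 with a pseudocount of 1 CPM, no minimum, median-ratio scaling, doublets kept, cells named one by one or unnamed clusters added. In R848 resting cells, the 2 higher were 1 with the 100 CPM minimum, 4 with cells named one by one, 4 without resting clusters of at least 500 CPM of Ccr7 and 5 without the largest clusters, and the 0 lower were 1 with no minimum or median-ratio scaling and 7 without the largest clusters. In mature cells against Control, leaving out the largest clusters gave 3 higher and 3 lower for CpG and 2 higher for R848, and naming cells one by one gave 2 higher for CpG. In lysozyme-high cells, the 1 higher in R848 was 2 with a pseudocount of 1 CPM, no minimum, free RNA taken away, joint clustering, proliferating clusters added or the largest clusters left out, and 3 with cells named one by one or unnamed clusters added; the 1 lower was 2 with no minimum and 0 with the 100 CPM minimum. For CpG, 2 higher and 1 lower became 0 and 0 with that minimum and 4 and 3 without the largest clusters. Between mature and resting cells, the lower members were 15 (no minimum), 4 (100 CPM minimum) and 4 (joint clustering) in Control in place of 9, and 8 and 8 with the 100 CPM minimum in CpG and R848, where fewer genes are tested. The 2 higher were 4 in Control without the largest clusters and 4 in R848 with median-ratio scaling. Between lysozyme-high and resting cells, the 100 CPM minimum left 5, 4 and 7 higher and 0, 0 and 0 lower, leaving out the largest clusters gave 19 higher in Control, no minimum and totals without ribosomal and mitochondrial genes each gave 5 lower in CpG, and adding proliferating clusters gave 2 lower in R848. Leaving out the largest clusters gave no value for CpG resting cells, which form 1 cluster. With 1 library per group, no replicate could be left out. No paired analysis was possible because each group has 1 library and no test was made. The 20 CPM minimum is a limit on level: Pfkm, Pfkfb4, Hk1, Eno2, Slc16a1 and Pdk1 stayed under it and were measured in none of these comparisons.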

Other observations

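Cells outside the 3 classes held values that enter no comparison above. In the R848 library a cluster of 292 cells with no name carried both lysozyme and maturation genes (11268 CPM of Lyz1, 973 CPM of Ccr7 and 1494 CPM of Il12b) and had 627 CPM of Ldha, 279 CPM of Eno1, 150 CPM of Eno3 and 185 CPM of Pfkfb3, each between the values of the mature and the lysozyme-high class of that library. In the CpG library an unnamed cluster of 44 cells carried Xcr1 (344 CPM) together with Ccr7 (2508 CPM) and had 373 CPM of Ldha, 240 CPM of Pfkfb3 and 70.2 CPM of Eno3. A proliferating CpG cluster of 160 cells with 1577 CPM of Ccr7 had 424 CPM of Ldha, 150 CPM of Eno1 and 106 CPM of Eno3.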
